A study of Mus musculus with 3 samples.

Results

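The autophagy machinery was followed here through 45 genes in c2c12 cells, a mouse myoblast line that has been immortalized and whose cells fuse to myotubes once serum is lowered. The 45 genes comprised the 18 symbols that begin with Atg and a digit and 27 further symbols of initiation kinases, lipid kinase subunits, membrane proteins, Atg8 proteins, cargo receptors, transcription factors and lysosomal proteins. The rule that names them uses no expression value, but it was written with earlier results of these data known. They stood among 23238 gene symbols, and all 45 were above the expression limit of 1 CPM (a count scaled to the size of its library) in at least 1 library, as were 13169 genes in all.

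All cells were c2c12 in myogenic induction medium, DMEM with horse serum and penicillin-streptomycin, and the RNA was taken after 2 days. They lay on a tissue culture plate (TCP), on a hydrogel of 15% methacrylated gelatin (GelMA), or on the same hydrogel with 1% poly sodium 4-styrenesulfonate, a sulfonated heparin-mimicking polymer (GelMA-PSS). Each substrate was represented by 1 RNA-seq library, so no value could be checked against a replicate and no p-value was calculated, and c2c12 is 1 cell line rather than muscle tissue. The question was how the heparin-mimicking polymer bears on muscle cells, with TCP and GelMA as the controls without it.

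The libraries held 119799095 counts (TCP), 87071144 (GelMA) and 192171443 (GelMA-PSS), of which the 45 genes took 0.691%, 0.673% and 0.726%. Single members had between 811 and 211295 counts, and the 95% Wilson interval of a member's level reached at most 6.89% to either side, for Atg10 on GelMA. These intervals cover counting error only, and would be too narrow if the 2 mates of a pair had each been counted, on which the sources used here are silent. All 8 myoblast and myocyte markers were expressed, and their summed level was 16930 CPM on TCP, 12050 on GelMA and 9105 on GelMA-PSS, or 6748, 5695 and 6068 CPM without Myh3. Of 13 markers of leukocytes, endothelium, epithelium and adipocytes, 11 were at or below 0.222 CPM in every library, and the summed level of the 13 was 12.4, 10.5 and 7.4 CPM, nearly all of it Cdh1 and Cd68. The embryonic myosin Myh3 was at 10182 CPM on TCP, 6355 on GelMA and 3037 on GelMA-PSS, whereas the myogenic factor Myog was at 1100, 895 and 1037 CPM. Mymk (1030, 773 and 670 CPM) and Ckm (542, 430 and 380 CPM) were, like Myh3, lowest on GelMA-PSS. The early factors Myf5 (13.9, 19.5 and 36.5 CPM) and Myod1 (94.3, 104.6 and 119 CPM) were highest on GelMA-PSS. Cdh15 (669, 610 and 672 CPM) was nearly level between TCP and GelMA-PSS, and Des (3299, 2863 and 3154 CPM) lay between the controls. The part of these markers in the results below was not tested. In bulk RNA, fewer cells of a kind and less RNA per cell cannot be told apart.

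Autophagy encloses portions of the cytoplasm in a double membrane, the autophagosome, and delivers them to the lysosome for degradation. A kinase complex starts the process, a lipid kinase and the Atg9, Atg2 and WIPI proteins build the membrane, and ubiquitin-like conjugation enzymes attach Atg8 proteins to it, where cargo receptors dock. In skeletal muscle, basal autophagy is known to clear damaged mitochondria and proteins, and excess autophagy accompanies muscle wasting. Levels of mRNA do not measure the flow of material through this pathway.

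The promoters of 4 members are shown, chosen after their values were seen, because these genes lie at the ends of the range described below. Bnip3 and Ctsl had the highest ratios in GelMA-PSS among members with a promoter window, Gabarap had the highest ratio against GelMA within the Atg8 family, and Atg2b had the lowest ratio of all members. Each line runs 5′ to 3′ on the gene's own strand, from 250 bases before to 50 bases after the start of the RefSeq gene record in GRCm38. The windows are chr7:138909457-138909756 for Bnip3 (minus strand), chr13:64370471-64370770 for Ctsl (minus strand), chr11:69991120-69991419 for Gabarap (plus strand) and chr12:105685192-105685491 for Atg2b (minus strand). Capitals mark ACGTG on either strand, which is read as CACGT where it lies on the other strand and as CACGTG where both coincide. For Gabarap, GENCODE places the 5′ end of the gene near the first bases of the window, and for Ctsl upstream of the whole window.
Bnip3: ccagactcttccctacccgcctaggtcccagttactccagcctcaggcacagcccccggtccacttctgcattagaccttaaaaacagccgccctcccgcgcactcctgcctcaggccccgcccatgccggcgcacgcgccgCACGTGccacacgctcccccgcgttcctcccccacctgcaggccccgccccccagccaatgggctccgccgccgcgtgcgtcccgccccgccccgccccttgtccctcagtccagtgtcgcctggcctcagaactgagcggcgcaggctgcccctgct
Ctsl: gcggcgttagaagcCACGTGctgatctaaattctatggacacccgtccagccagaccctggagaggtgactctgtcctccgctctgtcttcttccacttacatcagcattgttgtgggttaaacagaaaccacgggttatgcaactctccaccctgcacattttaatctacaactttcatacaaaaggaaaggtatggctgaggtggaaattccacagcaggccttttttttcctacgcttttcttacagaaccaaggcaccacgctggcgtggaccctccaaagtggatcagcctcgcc
Gabarap: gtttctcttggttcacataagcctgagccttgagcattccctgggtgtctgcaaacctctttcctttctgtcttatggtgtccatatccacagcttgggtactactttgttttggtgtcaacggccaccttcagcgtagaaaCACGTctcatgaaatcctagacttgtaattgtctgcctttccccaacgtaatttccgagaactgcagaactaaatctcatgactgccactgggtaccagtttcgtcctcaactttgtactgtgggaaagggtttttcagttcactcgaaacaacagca
Atg2b: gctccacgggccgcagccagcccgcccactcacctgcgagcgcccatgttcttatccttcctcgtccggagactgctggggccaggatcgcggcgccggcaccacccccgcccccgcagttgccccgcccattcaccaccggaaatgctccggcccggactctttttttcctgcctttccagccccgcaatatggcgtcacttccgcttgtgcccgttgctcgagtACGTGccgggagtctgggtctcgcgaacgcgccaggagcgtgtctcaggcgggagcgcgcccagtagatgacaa

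A RefSeq window was given for 37 of the 45 members. The hexamer CACGTG, the core of the element that Tfeb and its relatives bind, was found in 8 of the 37 (21.6%), against 11.6% of 9861 genes above the expression limit that had a window. Counted by window, it was in 18.6% of the 43 windows of members and 7.15% of all 32851 windows. The 8 were Atg14, Atg3, Atg5, Atg7, Bnip3, Lamp1, Ctsd and Ctsl. The shorter ACGTG, the core of the hypoxia response element, was searched on both strands and is contained in every CACGTG. It occurred in 18 of the 37 (48.6%), against 29.3% of the expressed genes, and by window in 41.9% of those of members and 19.6% of all. These are matches of letters and do not show that a factor bound.

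Few members differed much between the substrates. Ratios were taken on log2(CPM + 1) with TMM library factors, on which the change of a weakly counted gene is understated, and a gene was counted as different in GelMA-PSS when it passed the 2-fold threshold in 1 direction against both controls. Only Bnip3, a mitophagy receptor, was above both controls by this rule, which is 2.22% of the members against 1.37% of all genes tested. No member was below both, against 1.16% of all genes. With a threshold of 1.5-fold, Bnip3 and Bnip3l were above both controls (4.44% of the members, 8.08% of all genes) and Atg2b was below both (2.22% of the members, 7.18% of all genes). Without any threshold, GelMA-PSS was the highest of the 3 libraries for 25 members (55.6%, against 45.3% of all genes) and the lowest for 15 (33.3%, against 39.3%), with 5 members between the controls.

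Most ratios were small. Over the 45 members, GelMA-PSS had a median log2 ratio of 0.11 to GelMA and of 0.05 to TCP, where both medians over all genes tested were 0.04. Against the mean of the 2 controls the members' median was 0.07, with the middle 50% between -0.18 and 0.28, and 38 of the 45 (84.4%) lay within 0.5 of 0, as did 71.0% of all genes. The ratios of the role groups differed in sign, from a median of -0.39 for the Atg9, Atg2 and WIPI proteins to 0.40 for the Atg8 family. Since both comparisons share the GelMA-PSS library and the control mean shares both others, these ratios do not support each other.

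**Figure D1:**
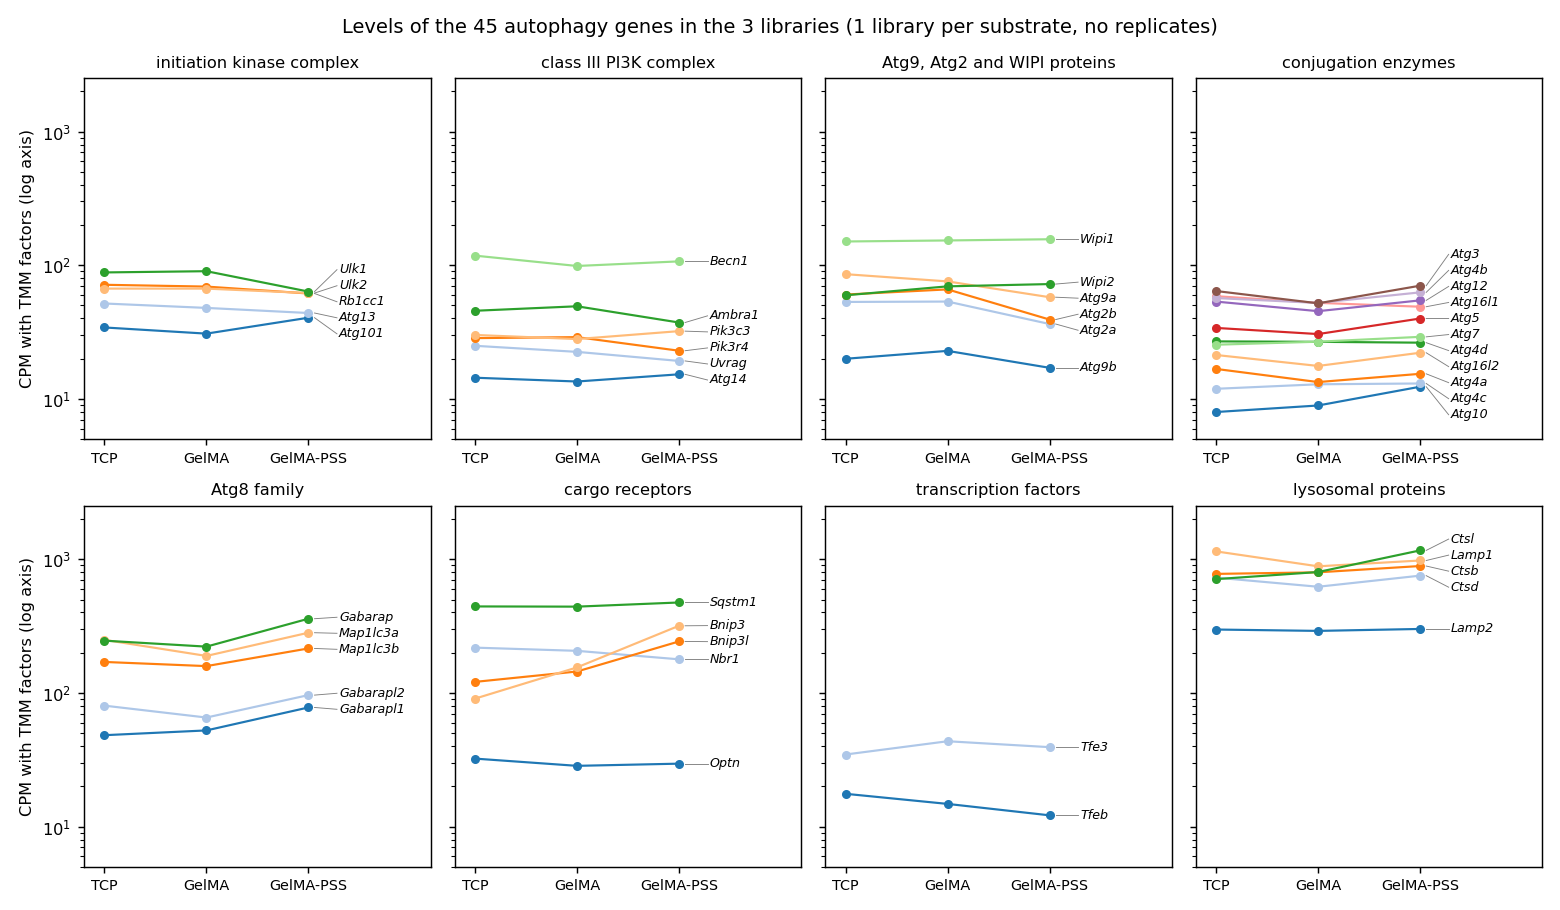
Levels of the 45 autophagy genes by role, in CPM with TMM factors on a log axis (vertical), for the TCP, GelMA and GelMA-PSS library (horizontal). Each line joins the 3 values of 1 gene, with no error bars because each substrate has 1 library; Bnip3 climbs from 90.7 to 318 CPM, all 5 Atg8 genes are highest on GelMA-PSS, and Ulk1, Ulk2 and Rb1cc1 of the initiation complex are lowest there.

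Per kilobase of transcript, the lysosomal genes Ctsl, Lamp1 and Ctsd were the most abundant members by mean level. Ctsl stood at 361 CPM per kilobase on TCP, 408 on GelMA and 592 on GelMA-PSS, and Lamp1 at 514, 398 and 440. The conjugation factor Atg16l2 was the least abundant, with 3.30, 2.73 and 3.43 CPM per kilobase. Sqstm1, Map1lc3a and Gabarap followed Ctsd and stood above the lysosomal Ctsb and Lamp2, whereas Atg14, Uvrag, Atg4c and Atg4d lay near the lower end.

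The initiation kinase complex, which receives signals from mTOR and AMPK, was lower on GelMA-PSS in 4 of its 5 members, none of them past 1.5-fold. Among all genes tested, GelMA-PSS was below both controls for 39.3%, and by 1.5-fold for 7.18%. Ulk1, the kinase itself, was at 88.4 CPM on TCP, 90.3 on GelMA and 63.5 on GelMA-PSS, a log2 ratio of -0.48 to the control mean. Its paralog Ulk2 was at 66.9, 66.9 and 61.9 CPM, the scaffold Rb1cc1 at 71.4, 69.2 and 61.5 CPM, and the adaptor Atg13 at 51.7, 48.0 and 43.9 CPM, with GelMA-PSS below both controls in each. For Atg13 the controls lay about as far apart as GelMA and GelMA-PSS, with log2 ratios of -0.11 and -0.12. Atg101, the partner that stabilizes Atg13, went the other way, with 34.2 CPM on TCP, 30.8 on GelMA and 40.5 on GelMA-PSS. Atg101 has the shortest transcript of the 5, with 1270 bases, and Rb1cc1 the longest, with 7607 bases. The group's median log2 ratio was -0.18 as measured and 0.01 once ratios were corrected for transcript length and GC content, a correction that is described below.

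The class III phosphatidylinositol 3-kinase complex, whose lipid product recruits the WIPI proteins, was split. The catalytic subunit Pik3c3 was at 30.1 CPM on TCP, 28.03 on GelMA and 32.1 on GelMA-PSS, and Atg14, the subunit that directs the complex to autophagy, at 14.4, 13.5 and 15.3 CPM. Becn1, the scaffold, was at 118, 98.8 and 107 CPM, between the controls. Below both controls were the regulatory subunit Pik3r4 (28.5, 29.0 and 22.9 CPM), the endosomal subunit Uvrag (24.96, 22.5 and 19.2 CPM) and the Becn1 partner Ambra1 (45.6, 49.3 and 37.3 CPM). The log2 ratios against the control mean ran from -0.34 for Ambra1 to 0.14 for Pik3c3, and after the correction from -0.08 to 0.15. None of the 6 passed 1.5-fold against both controls, where 8.08% of all genes were above and 7.18% below.

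The proteins that supply lipid to the growing membrane included the member with the lowest ratio. Atg2b, a lipid transfer protein (chr12:105616136-105685211, minus strand, GRCm38), had 7350 counts on TCP, 5995 on GelMA and 7106 on GelMA-PSS, or 60.4, 66.0 and 39.2 CPM. The controls lay close to each other and GelMA-PSS below both, at 0.595 times the level on GelMA (95% interval 0.574 to 0.616) and 0.650 times that on TCP (0.629 to 0.672). The ratio of Atg2b against the control mean was -0.67, and -0.17 after correction, so that Atg2b passed 1.5-fold against both controls only as measured. Its paralog Atg2a was at 53.1, 53.5 and 36.3 CPM, with a log2 ratio of -0.54 that became -0.03.

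Atg9a, a lipid scramblase that travels in vesicles, was at 85.7 CPM on TCP, 75.7 on GelMA and 57.7 on GelMA-PSS, and Atg9b at 19.96, 22.9 and 17.1 CPM. Here too GelMA-PSS was the lowest library, though by less than 1.5-fold against either control. The log2 ratios of these 2 genes against the control mean were -0.48 and -0.31 (corrected, -0.27 and -0.11). The lipid-binding Wipi1 was nearly level at 151, 153 and 157 CPM, and Wipi2, which recruits Atg16l1, was at 59.6, 69.5 and 72.3 CPM, higher on both hydrogels than on TCP. With 5171 bases Wipi2 has a long transcript, and its log2 ratio of 0.17 became 0.44 after correction.

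The conjugation enzymes were mostly a little higher on GelMA-PSS. GelMA-PSS was the highest library for 8 of the 11, the lowest for 2 (Atg4d and Atg16l1) and between the controls for 1 (Atg4a). Over all genes tested it was the highest for 45.3% and the lowest for 39.3%. None of the 11 passed 1.5-fold against both controls, where 8.08% of all genes were above and 7.18% below. The ratio of Atg10, the E2-like enzyme that joins Atg12 to Atg5, was the highest of the group. Atg10 was at 7.97 CPM on TCP, 8.92 on GelMA and 12.3 on GelMA-PSS, a log2 ratio of 0.50 that became 0.07 after correction, for a transcript of 1583 bases. Atg10 was also the least counted member on TCP and GelMA, with 971 and 811 counts.

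Atg3, the E2-like enzyme of the Atg8 proteins, was at 64.1, 51.9 and 70.3 CPM, Atg5 at 34.0, 30.6 and 39.9 CPM, and its partner Atg12 at 53.5, 45.3 and 54.6 CPM on TCP, GelMA and GelMA-PSS. In these 3 genes GelMA-PSS was the highest library and GelMA the lowest. Atg7, the E1-like enzyme of both conjugation chains, was at 25.4, 26.8 and 29.1 CPM. The protease Atg4b, which trims Atg8 proteins, was at 56.8, 52.2 and 62.7 CPM, Atg4a at 16.8, 13.4 and 15.4 CPM, Atg4c at 11.9, 12.9 and 13.0 CPM, and Atg4d at 26.9, 26.7 and 26.3 CPM.

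Atg16l1, which places the conjugation machinery on the membrane, was the group's lowest by ratio, with 58.7, 52.3 and 48.9 CPM and a log2 ratio of -0.18 with and without correction. Its paralog Atg16l2 was at 21.3, 17.6 and 22.1 CPM, and its log2 ratio of 0.18 became 0.58 after correction, the highest corrected ratio among the conjugation enzymes. Atg16l2 has the longest transcript among them, with 6459 bases.

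The Atg8 family, the ubiquitin-like proteins that coat the autophagosome, was highest on GelMA-PSS in all 5 members, though none passed 1.5-fold against both controls. Among all genes tested, GelMA-PSS was above both controls for 45.3%, and by 1.5-fold for 8.08%. Gabarap had 29974 counts on TCP, 20180 on GelMA and 65087 on GelMA-PSS, or 246, 222 and 359 CPM. The ratio of Gabarap was 1.62-fold against GelMA (1.59 to 1.64) and 1.46-fold against TCP (1.44 to 1.48), so it missed the 1.5-fold threshold against TCP alone. Gabarapl1, its close paralog, was at 48.3, 52.4 and 77.9 CPM, 1.61-fold over TCP (1.56 to 1.66) and 1.485-fold over GelMA (1.44 to 1.54), just under the threshold.

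Map1lc3a, 1 of the LC3 genes, was at 250 CPM on TCP, 189 on GelMA and 282 on GelMA-PSS, and Gabarapl2 at 80.3, 65.5 and 96.4 CPM. In both the GelMA library was lowest and the difference between the controls was as large as that between TCP and GelMA-PSS or larger: for Map1lc3a, -0.40 for GelMA against TCP and 0.18 for GelMA-PSS against TCP on the log2 scale. Map1lc3b, the LC3 form most used as a marker of autophagosomes, was at 171, 159 and 215 CPM. The log2 ratios of the 5 against the control mean lay between 0.38 and 0.62, with a median of 0.40. All 5 are encoded by short transcripts of 1112 to 2532 bases, and their corrected log2 ratios were lower, from 0.06 for Gabarapl2 to 0.40 for Gabarapl1, with a median of 0.25. Against TCP alone the corrected ratios of Map1lc3a (-0.05) and Gabarapl2 (-0.04) were below 0, so neither was highest on GelMA-PSS after correction. Map1lc3b, Gabarap and Gabarapl1 stayed above both controls. Measured from the median of all genes, the 5 ratios lay between 0.34 and 0.59, and between 0.28 and 0.53 when TPM values without library factors were used, a scaling under which the median of all genes was -0.35 and the plain ratios of Map1lc3a, Map1lc3b and Gabarapl2 were slightly negative.

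Among the cargo receptors, the mitophagy receptors Bnip3 and Bnip3l were higher on GelMA-PSS while the receptors of ubiquitinated cargo differed little. Bnip3 sits in the outer membrane of mitochondria and binds Atg8 proteins (chr7:138890836-138909519, minus strand, GRCm38). Its counts were 11041 on TCP, 14115 on GelMA and 57629 on GelMA-PSS, or 90.7, 155 and 318 CPM, so that the 3 libraries lay apart in the order TCP, GelMA, GelMA-PSS. Bnip3 was 2.05-fold higher on GelMA-PSS than on GelMA (2.01 to 2.09) and 3.51-fold higher than on TCP (3.44 to 3.58). The control substrates differed as well, by 1.71-fold in favour of GelMA (1.67 to 1.76), and Bnip3 was the only member past 1.5-fold between them (2.22% of the members, 3.5% of all genes, with 0 members and 2.12% of all genes below).

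The log2 ratio of Bnip3 against GelMA, 1.03, lay just past the 2-fold threshold. It became 0.61 after correction for length and GC content, and with library totals in place of TMM factors Bnip3 no longer passed 2-fold against GelMA. Relative to the median of all genes, its ratio against the control mean was between 1.04 and 1.38 under the scalings and the correction tried. Bnip3 shares sequence with other loci: 33.5% of the 100-base windows of its transcript occur in transcripts annotated to pseudogenes or to an antisense gene, so its counts could have been split with these copies.

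Bnip3l, the paralog known as Nix (chr14:66985239-67008877, minus strand, GRCm38), had 14729 counts on TCP, 13148 on GelMA and 43996 on GelMA-PSS, or 121, 145 and 243 CPM. The order of the libraries was that of Bnip3, with the controls closer together. Bnip3l was 1.68-fold higher on GelMA-PSS than on GelMA (1.65 to 1.71) and 2.01-fold higher than on TCP (1.97 to 2.05). The transcript of Bnip3l, 3238 bases, is of middle length, and correction moved its log2 ratio against the control mean only from 0.87 to 0.76. After correction, Bnip3 and Bnip3l were still the members past 1.5-fold above both controls (4.44%, against 2.53% of all genes), and no member was below both (3.66% of all genes).

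Sqstm1, the receptor p62 that links ubiquitinated cargo to LC3, was at 444, 442 and 475 CPM on TCP, GelMA and GelMA-PSS. The GelMA-PSS library was highest by 1.07-fold, and the controls were level. Nbr1, another receptor of ubiquitinated cargo, was at 218, 207 and 179 CPM, the lowest on GelMA-PSS. Optn, which also serves mitophagy, was at 32.3, 28.5 and 29.6 CPM, between the controls. Thus Bnip3 and Bnip3l, with log2 ratios of 1.41 and 0.87, stood apart within the group from the other 3, which lay between -0.25 and 0.10.

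**Figure D2:**
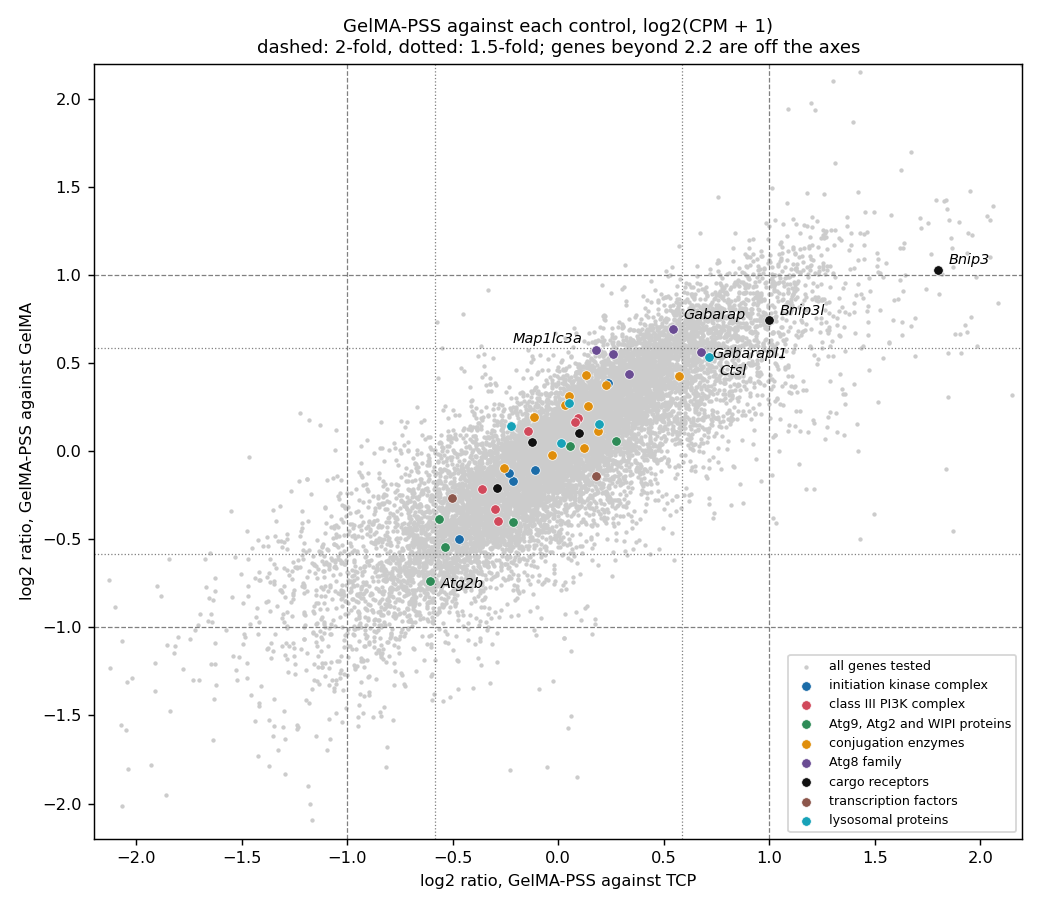
Log2 ratio of GelMA-PSS against TCP (horizontal) and against GelMA (vertical) on log2(CPM + 1) for all 13169 genes tested (grey) and the 45 members (coloured by role), with dashed lines at 2-fold and dotted lines at 1.5-fold. Bnip3 lies beyond the dashed lines on both axes, and Bnip3l and Atg2b lie beyond the dotted lines on both. Gabarap passes the dotted line against GelMA only, and Gabarapl1 and Ctsl pass it against TCP only. The other members lie within the dotted lines on both axes.

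The transcription factors of the pathway were both expressed at low levels. Tfeb, a master regulator of lysosomal and autophagy genes, was at 17.6 CPM on TCP, 14.8 on GelMA and 12.1 on GelMA-PSS, a log2 ratio of -0.38 against the control mean that correction left at -0.39. GelMA-PSS was the lowest of the 3 libraries, but the ratio against GelMA was only -0.26. Its relative Tfe3 was at 34.6, 43.5 and 39.3 CPM, between the controls. Both factors are regulated mainly by their location in the cell, which mRNA does not show.

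The lysosomal proteins included 1 member that stood out as measured, though not after correction. Ctsl, the cysteine protease cathepsin L and a gene known to be induced in wasting muscle, had 86536 counts on TCP, 73010 on GelMA and 211295 on GelMA-PSS, or 711, 803 and 1166 CPM. The order was TCP, GelMA, GelMA-PSS, and Ctsl was 1.64-fold higher on GelMA-PSS than on TCP (1.63 to 1.65) and 1.45-fold higher than on GelMA (1.44 to 1.46), so it missed the 1.5-fold threshold against GelMA. The corrected log2 ratio against the control mean was 0.34, down from 0.63. Cathepsin B, Ctsb, was at 778, 799 and 891 CPM, and the aspartic protease Ctsd at 729, 623 and 755 CPM. The ratio of Ctsb, whose transcript has 4743 bases, grew with correction from 0.18 to 0.37, slightly above that of Ctsl. The ratio of Ctsd was 0.16 as measured and 0.06 after correction. Lamp1 and Lamp2, the main glycoproteins of the lysosomal membrane, were at 1146, 886 and 980 CPM and at 298, 291 and 301 CPM. For Lamp1 the controls differed by more than GelMA-PSS did from either, and Lamp2 was level as measured. After correction the log2 ratios against the control mean were -0.19 for Lamp1 and -0.25 for Lamp2.

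The members' ratios followed transcript length, as did those of all genes. Spearman's rho between the log2 ratio against the control mean and transcript length was -0.64 across the 45 members and -0.60 across 13056 genes with a known length. These are correlations across genes of the same 3 libraries and serve as a description only. Among the 17 members with transcripts under 2500 bases, GelMA-PSS was highest for 14 and lowest for 1, with a median log2 ratio of 0.30. Among the 17 with transcripts of 4000 bases or more it was highest for 5 and lowest for 11, with a median of -0.19, and the 11 members in between had a median of 0.07. Over all genes tested, of any length, GelMA-PSS was highest for 45.3% and lowest for 39.3%.

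A loess correction for transcript length and GC content brought the medians of these length classes to 0.06, 0.10 and 0.08, from the shortest to the longest. The corrected rho was 0.05 for the members and -0.04 for all genes. Under the correction Ulk2, Rb1cc1, Becn1, Wipi1, Atg4a, Atg4c, Atg4d, Sqstm1 and Lamp2 changed the sign of their ratio against the control mean. On that measure Bnip3, Bnip3l, the 5 Atg8 genes and Ctsl stayed positive, and Tfeb, Atg9a and Atg2b stayed negative. Against TCP alone, however, the corrected ratios of Map1lc3a and Gabarapl2 were -0.05 and -0.04. Against GelMA the members' rho was -0.68, against TCP -0.59, and for GelMA against TCP 0.19, so the relation was strong in both ratios that hold the GelMA-PSS library and weak, with the opposite sign, between the controls. Its source was not tested.

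**Figure D3:**
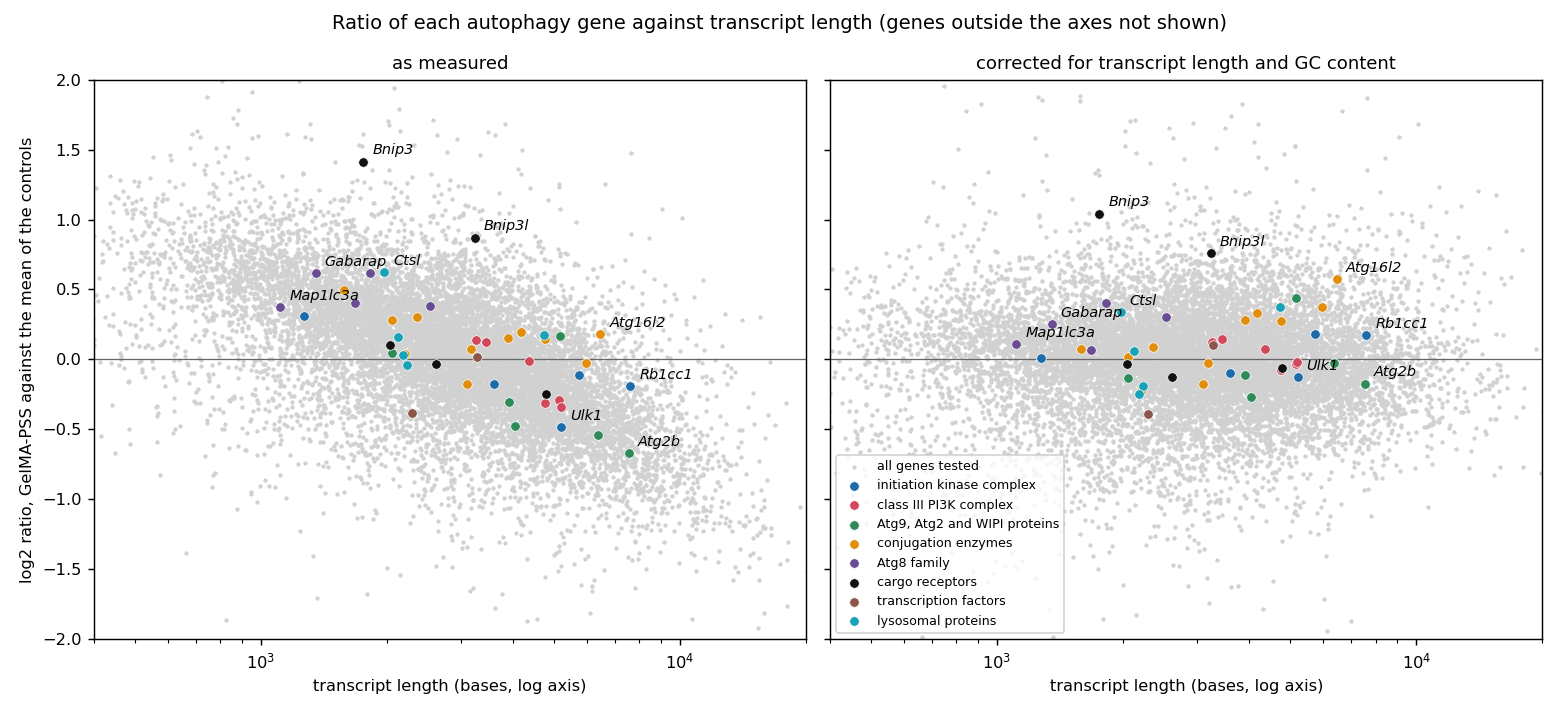
Log2 ratio of GelMA-PSS against the mean of both controls (vertical) by transcript length in bases on a log axis (horizontal), as measured (left) and corrected for transcript length and GC content (right), with all genes tested in grey and the 45 members coloured by role. As measured, short members such as Map1lc3a and Gabarap lie above 0 and long ones such as Ulk1 and Atg2b below it; corrected, Bnip3 at 1.04 and Bnip3l at 0.76 remain above the other members.

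GelMA and TCP, the substrates without PSS, differed in another way. The median log2 ratio of the members for GelMA against TCP was -0.08, against -0.01 for all genes. GelMA was the higher of the 2 for 17 of the 45 members, and for 6359 of the 13169 genes tested. Map1lc3a (-0.40), Lamp1 (-0.37), Atg4a (-0.30) and Atg3 (-0.30) had the lowest ratios, and Bnip3 (0.77), Tfe3 (0.32) and Bnip3l (0.26) the highest. The 3 libraries were ordered TCP, GelMA, GelMA-PSS from low to high for 10 members: Wipi1, Wipi2, Atg4c, Atg7, Atg10, Gabarapl1, Bnip3, Bnip3l, Ctsb and Ctsl. That is 22.2% of the members, beside 22.5% of all genes.

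Other genes of the pathway were described by lists of names, each by its count and median. Of 30 further autophagy genes 28 were above the expression limit, with a median log2 ratio of -0.10 against the control mean (corrected, -0.04). GelMA-PSS was highest for 10 (35.7%, against 45.3% of all genes) and lowest for 14 (50%, against 39.3%). None was above both controls by 1.5-fold (8.08% of all genes) and 2 were below (7.14%, against 7.18% of all genes), which is no more than the share of all genes, and neither passed 1.5-fold after correction. Wdfy3, a large scaffold for the clearance of protein aggregates, fell past 2-fold from 100 CPM on TCP and 127 on GelMA to 48.9 on GelMA-PSS, with a corrected log2 ratio of -0.23. Smcr8, which forms a complex with the C9orf72 protein, was at 44.6, 47.2 and 25.3 CPM, and its log2 ratio of -0.84 became -0.36.

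The 17 genes of autophagosome and lysosome fusion had a median of -0.12 (corrected, -0.03). By 1.5-fold, 1 gene was above and 1 below both controls (5.88% each, under the 8.08% and 7.18% of all genes), and neither passed after correction. The gene above was the SNARE protein Vamp8, with 44.9 CPM on TCP, 47.5 on GelMA and 88.0 on GelMA-PSS, and a log2 ratio of 0.92 that became 0.43. Fyco1, an adaptor that moves autophagosomes along microtubules, was the gene below, with 102, 96.7 and 55.8 CPM and a log2 ratio of -0.82 that became -0.28.

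Of 44 lysosomal enzymes and membrane proteins 41 were expressed, with a median of 0.06 (corrected, -0.01) and 3 above both controls by 1.5-fold (7.32%, against 8.08% of all genes). These were Ctso, a cysteine cathepsin, at 12.1, 12.7 and 22.1 CPM, the tetraspanin Cd63 at 1379, 1325 and 2165 CPM, and Npc2, a cholesterol carrier, at 281, 292 and 445 CPM. Correction left the log2 ratios of Ctso and Npc2 at 0.71 and 0.65 and lowered that of Cd63 from 0.68 to 0.28. No gene of this list was below both. The 18 subunits of the V-ATPase, the pump that acidifies lysosomes, had a median of 0.09 (corrected, -0.17). The small subunits Atp6v0e (105, 89.8 and 162 CPM) and Atp6v1f (46.5, 43.8 and 74.0 CPM) were above both controls by 1.5-fold (11.1% of the list, against 8.08% of all genes), with log2 ratios of 0.73 and 0.70 that became 0.18 and 0.17. After correction no subunit was above both controls by 1.5-fold and 2 were below, Atp6v0a1 and Atp6v0e2 (11.1%, against 3.66% of all genes), which were named after their values were seen.

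Several members share exonic sequence with other annotated genes, and whether the authors' counting used strand is not given in the sources used here. Of the 45, 18 had 100-base windows that recur in transcripts of another gene on either strand. The largest shares were 44.2% for Atg4a, mainly with its pseudogene, 43.8% for Atg9a, 41.1% for Becn1, which overlaps Cntd1, 35.0% for Ctsd and 33.5% for Bnip3, so these values carry that uncertainty. Bnip3l shared 17.2% of its windows with a pseudogene. Gabarapl1 shared 16.3% with 1700101I11Rik on the opposite strand, which stood at 2.316, 2.443 and 4.068 CPM. The transcripts used for Ctsl, Gabarap, Sqstm1 and Map1lc3a held no such window. Over all annotated exons of the gene, however, 26.8% of the bases of Ctsl overlap the antisense gene Gm47123 and 6.1% the pseudogene Gm49230 on its own strand, and 17.3% of those of Sqstm1 overlap Mrnip on the opposite strand.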

How the data were processed

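RNA-seq libraries of c2c12 cells on TCP, GelMA and GelMA-PSS were used, 1 per substrate, assigned from the sample labels. The authors deposited unnormalized read counts for each gene symbol. The submitters' processing notes name TopHat, edgeR, mm10 and hg19, the methods a TruSeq kit, and the labels a SMARTER kit. The counting tool is not given in the sources used here.

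Repeated symbols were summed (23282 lines, 23238 symbols). CPM used TMM factors of 1.016, 1.044 and 0.943 for TCP, GelMA and GelMA-PSS from edgeR 4.0.16 (R 4.3.3), and genes reaching a CPM of 1 in any library were kept. Ratios were differences of log2(CPM + 1), and the control mean is the mean of both controls' log2 values. Calls used the 2-fold threshold of the methods and 1.5-fold, in 1 direction against both controls. Levels carry 95% Wilson intervals and folds exact conditional intervals (scipy 1.17.1).

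Transcript length, GC content and positions came from GENCODE vM21 (GRCm38), with the RefSeq-linked basic transcript of longest coding sequence preferred. Of the symbols, 22197 matched as written, 655 matched by an older name and 386 did not match. The correction subtracted a loess fit on log2 length and then 1 on GC content, each of span 0.3, with statsmodels 0.14.6. On counts simulated with Poisson error from 1 shared profile, 100% of 200 genes made 4-fold different were recovered among 12909 genes, and 0 others were called. The simulation held counting error only, with no spread between cultures and no relation to transcript length. A 4-fold change lies well past the 2-fold threshold, so this outcome was near certain. It checks the running of the steps and says nothing on the reliability of calls from single libraries.

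The members and the lists were chosen with earlier results of these data known. All members may be named, with all 3 levels for those past 1.5-fold, the Atg8 family, the receptors, the factors and the lysosomal proteins, and from other lists up to 3 genes per direction past 1.5-fold against both controls. Alternatives covered the scaling (DESeq2 1.42.0 size factors, library totals, TPM), pseudocount, filter, threshold, repeated symbols and the correction.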

Additional observations from a re-analysis of the deposited data

How the results depend on the processing

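The scaling decided the sign of the small medians. With library totals, GelMA-PSS had a members' median log2 ratio of -0.03 to GelMA and -0.05 to TCP, and with TPM without factors these were -0.35 and -0.36. TPM gave -0.03 for GelMA against TCP, and the length and GC correction gave -0.01 for GelMA-PSS against TCP. The medians against the control mean, with library totals and then TPM, were -0.23 and -0.53 for the further autophagy genes, -0.25 and -0.55 for fusion, -0.06 and -0.37 for lysosomal proteins, and -0.04 and -0.35 for V-ATPase subunits. With the length and GC correction they were -0.04, -0.03, -0.01 and -0.17, and without the expression filter the further autophagy genes had -0.04. These scalings move all genes together, the median of all genes being -0.08 with library totals and -0.35 with TPM. Measured from that median, 1 member changed sides with library totals (Wipi1), 2 with TPM (Wipi1 and Atg4a) and 9 with the correction.

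The number of members above both controls by 2-fold was 0 with library totals, with TPM and with the correction, and at 1.5-fold it was 2 above and 1 below. A pseudocount of 0.1, size factors by the median of ratios, a filter at a CPM of 5 and leaving out repeated symbols changed no member's sign. No paired analysis was possible because each substrate has 1 library, and none could be left out. Depth did not limit the members, whose counts reached 811 or more in every library. The lack of a second library did, since no difference here could be set against the spread between cultures.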

Other observations

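Bnip3 and Bnip3l are known targets of the hypoxia-inducible factor, and a list of 27 other genes inducible by low oxygen was described after the values of Bnip3 had been seen, so it is no independent evidence. The list had a median log2 ratio of 0.57 in GelMA-PSS against the control mean, where the median of all genes was 0.03, and 0.55 after the length and GC correction. With TPM without factors the median was 0.13, where that of all genes was -0.35. GelMA-PSS was the highest library for 20 of the 27 (74.1%, against 45.3% of all genes) and the lowest for 3 (11.1%, against 39.3%), and 19 were ordered TCP, GelMA, GelMA-PSS from low to high (70.4%, against 22.5%). GelMA was above TCP for 24 of the 27, and for 6359 of the 13169 genes tested. Above both controls by 1.5-fold were 8 genes (29.6%, against 8.08% of all genes): Pgk1, Ankrd37, Ndrg1, Car9, Higd1a, Fam162a, Tpi1 and Gapdh. After the correction 3 passed (11.1%, against 2.53%), Car9, Higd1a and Pdk1, so that Pgk1, Ankrd37, Ndrg1, Fam162a, Tpi1 and Gapdh lost the call.

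Car9, a carbonic anhydrase of the cell surface, was at 10.0 CPM on TCP, 35.0 on GelMA and 62.6 on GelMA-PSS, and the glycolytic enzyme Pgk1 at 884, 1470 and 2668 CPM. In both, as in Bnip3, GelMA lay between TCP and GelMA-PSS. Other genes of the list did not share this order. The growth factor Vegfa was at 240, 292 and 248 CPM, and the repressor Bhlhe40, at 193, 172 and 114 CPM, was below both controls by 1.5-fold. Oxygen was not among the values analysed here, and what sets these levels was not tested.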
